A study of Mus musculus with 9 samples.

Results

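AP-1 is a transcription factor built as a pair of basic leucine zipper proteins, and its subunits come from the Fos family (Fos, Fosb, Fosl1 and Fosl2) and the Jun family (Jun, Junb and Jund). Expression of these 7 genes was read from every probe set that the platform annotation assigns to them, which gave 9 of the 12488 probe sets on the array (7 of 8252 named genes), with 2 each for Fos and Junb and 1 for each of the other members. The study measured total RNA of OB-6 cells, a mouse osteoblastic line, on 1-colour short-oligonucleotide arrays before parathyroid hormone (PTH) and after 30 and 60 min of it, on 3 arrays per time, named replicates a, b and c. The question was which genes PTH regulates in the first hour. All groups are the same line and differ in the labels by PTH time alone. The sources used here give neither the PTH dose nor the culture conditions, and do not say whether replicates were separate cultures. The p-values therefore reflect array-to-array spread that may be purely technical. The reference for each change is the 0 min group, since time-matched untreated cultures were not analysed here.

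Jun proteins can pair with one another or with Fos proteins, whereas Fos proteins need a Jun partner to bind DNA. The pair binds the TPA response element (TRE), and some pairs also bind the related cAMP response element (CRE). Fos and Junb are textbook immediate-early genes, switched on within minutes by CREB and by the serum response factor without new protein synthesis, while Jund is present in most resting cells. In osteoblasts PTH raises cAMP through its G protein-coupled receptor, and Fos is a classical early target of the hormone.

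The promoters of Fos, Junb and Jun are shown because these genes rose after PTH and because their proximal sequence carries the cAMP- and AP-1-type elements that were searched for. Chosen in this way, they cannot show whether such elements go with a rise. RefSeq promoter sequences of build GRCm38.p6 were matched for 6 of the 7 genes, Fosl1 having no entry. Each stretch runs 5′ to 3′ on the gene's strand and ends at the base before the annotated start. Capitals mark the CRE core TGACG, the Jun-type TRE TGACATCA and the TATA box core TATAAA. The Fos stretch is chr12:85473750-85473889 (plus strand), the Junb stretch chr8:84978749-84978878 (minus strand) and the Jun stretch chr4:95052223-95052322 (minus strand).
Fos: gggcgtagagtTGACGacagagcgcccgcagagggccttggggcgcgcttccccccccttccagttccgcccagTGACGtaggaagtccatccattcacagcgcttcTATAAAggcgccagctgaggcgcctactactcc
Junb: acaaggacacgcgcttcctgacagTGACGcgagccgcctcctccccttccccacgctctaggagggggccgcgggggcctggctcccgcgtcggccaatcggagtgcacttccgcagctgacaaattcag
Jun: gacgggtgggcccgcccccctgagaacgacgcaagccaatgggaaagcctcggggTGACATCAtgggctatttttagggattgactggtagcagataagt

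In the 250 bases before the start, searched on both strands, Fos held the core TGACG at positions -129 and -66 and TATAAA at -33, counted from the start to the 5′ base of the match. Junb held TGACG at -106, and Jun held TGACATCA at -45. Jund, called higher at 60 min, held none of the elements searched for, nor did Fosl2, which was not called. Fosb, whose probe set did not change, also held TGACG, at -60. The start used for Fosb lay 73 bases inside its annotated gene, so this match falls within the gene. Whether it belongs to the Fosb promoter was not tested. The core was thus found in windows of genes that rose and in that of 1 gene that did not. The core was present in 3 of the 6 member windows, Fosb included, and in 17.8% of the 32851 promoters in the table. TGACATCA was present in 2.93% and TATAAA in 12.4% of them. No match was found in the 6 member windows to the full CRE TGACGTCA, which contains the core and stands in 1.55% of all promoters, to the TRE TGANTCA (6.75%) or to the CArG box, the binding element of serum response factor (1.47%). Sequence further upstream than these 250 bases was not searched. An element missing from a window may therefore still be present in the promoter.

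After PTH, 4 of the 8 tested AP-1 probe sets were called higher at 30 min, those of Fos, Fosl1 and Junb. At 60 min 6 of 8 were called higher, adding Jun and Jund, while none passed the threshold downward at either time. Of all 7884 probe sets tested, 0.482% rose at 30 min and 4.35% at 60 min. The background split of 38 higher and 36 lower at 30 min was 52 and 91 after quantile normalization, 40 and 61 after 75th percentile scaling and 32 and 60 after cyclic loess. At 60 min it was 343 and 688. It was then 383 and 623 after quantile normalization, 499 and 652 after 75th percentile scaling and 227 and 622 after cyclic loess. The median log2 fold change of the 8 AP-1 probe sets was 0.81 at 30 min and 1.07 at 60 min, beside 0.05 and 0.03 for all tested probe sets. Junb enters this median and the counts through both its probe sets. With only its brighter one kept, the middle of the 7 genes was Jun, at 0.59 and 0.82. Without regard to the test, 5 of the 8 had all 30 min arrays above all 0 min arrays, as did 15.3% of all tested probe sets. At 60 min 6 of 8 were wholly above and 1, that of Fosl2, wholly below, beside 20% and 20.7% of all. These shares and medians describe genes picked with earlier results of these data known, and both comparisons share the 0 min arrays. Calls were made at a limma adjusted p under 0.05 over all 7884, and fold changes are on the log2(intensity + 11.8) scale, on which dim probe sets appear to change less than they do. For any one gene, exact permutation of 3 and 3 arrays gives a p of 0.1 at the least.

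**Figure D1:**
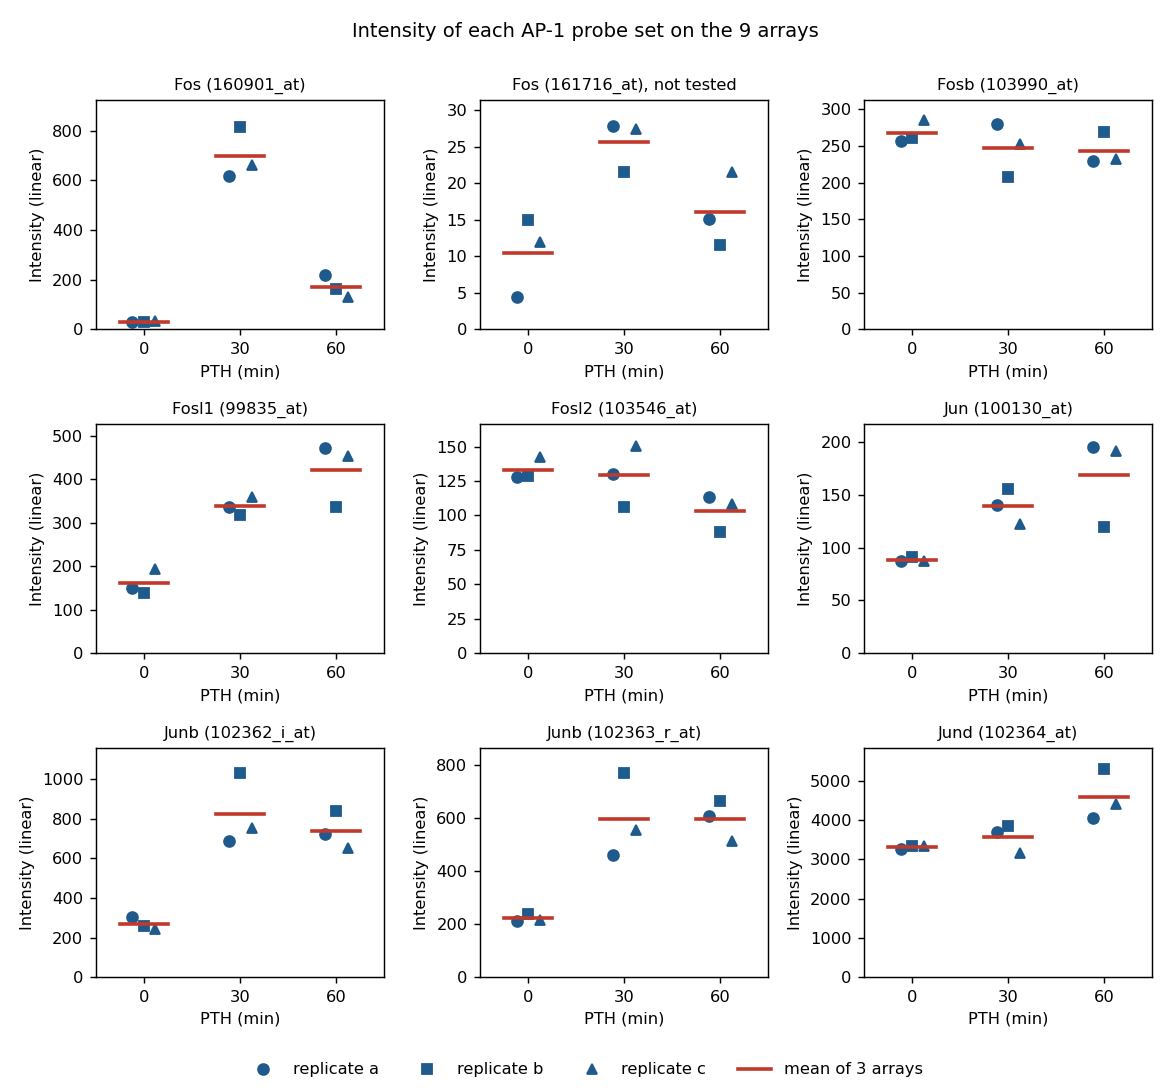
Linear intensity (y axis, from 0) of each AP-1 probe set on the 9 arrays against minutes of PTH (x axis), with a symbol per replicate and a red bar for the mean of 3 arrays. Fos is highest at 30 min, on the arrays at 618, 815 and 662, and has fallen back by 60 min, Junb stays up at 60 min, and Fosb lies between 208 and 285 throughout.

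Fos, whose protein forms the classical AP-1 pair with Jun, moved most. Its main probe set read 27.5, 30.8 and 34.4 at 0 min, 618, 815 and 662 at 30 min, and 220, 160 and 128 at 60 min. The 3 times did not overlap, and every 30 min array was above every 60 min array. The mean intensity at 30 min was 22.6 times that at 0 min, and with the added constant the log2 fold change was 4.05, with a 95% confidence interval of 3.63 to 4.47 (limma adjusted p = 3.44e-06). This was the largest rise among the 7884 tested probe sets. The size depends on the added constant, because the 0 min signal lay below the filter intensity of 44.7. It was 3.29 with the constant at the 40th percentile of all values and 4.49 with a floor in place of a constant, with adjusted p of 3.87e-06 and 3.37e-06.

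At 60 min Fos was still above the start by a log2 fold change of 2.06 (95% confidence interval 1.64 to 2.48, limma adjusted p = 0.000803), the second highest rise of all tested probe sets, and 1.48 with the constant at the 40th percentile. Its mean intensity was then 24.3% of that at 30 min. The fall from 30 to 60 min was itself tested, at -1.99 on the log2 scale (95% confidence interval -2.41 to -1.57, limma adjusted p = 0.00475). Only 2 of the 7884 probe sets, 0.0254%, passed in this comparison, Fos and Dusp1, the latter encoding a phosphatase of MAP kinases, at -0.88 (limma adjusted p = 0.018). The Dusp1 call was lost in 11 of 22 settings, among them the replicate block (limma adjusted p = 0.0723), a fit of only the 2 groups compared (0.235) and every array left out in turn except 60 min replicate b (0.0556 to 0.217). Between these times 1 AP-1 probe set, that of Jund, was wholly higher and 1, that of Fos, wholly lower, beside 5.06% and 6.49% of all tested probe sets. For Fos the limma adjusted p was 0.0523 without 30 min replicate b, the brightest Fos array, with a change of -1.88, and it passed in the other 21 settings tried.

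The second Fos probe set was dim. It read 4.4, 15 and 11.9 at 0 min, 27.9, 21.6 and 27.4 at 30 min, and 15.1, 11.6 and 21.6 at 60 min, and never reached 44.7, so it was not tested. Its 30 min arrays were all above the 0 min arrays, and its 60 min arrays overlapped both. When the filter was dropped, its log2 fold change at 30 min was 0.78 (limma adjusted p = 0.188), well short of the change on the main probe set.

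Fosl1, encoding Fra-1, a Fos-family protein without the strong transactivation domain of Fos, rose and did not fall back. It read 150, 138 and 193 at 0 min, 337, 317 and 359 at 30 min, and 471, 337 and 454 at 60 min. The treated arrays were all above the 0 min arrays, and the 30 and 60 min arrays overlapped. The log2 fold change was 1.03 at 30 min (95% confidence interval 0.67 to 1.39, limma adjusted p = 0.0193) and 1.33 at 60 min (0.97 to 1.69, limma adjusted p = 0.00299). The step from 30 to 60 min was 0.30 (-0.06 to 0.65, limma adjusted p = 0.579), so a further rise was not shown. The 30 min call was lost without 0 min replicates a or b (limma adjusted p = 0.129 and 0.0995) or 30 min replicates b or c (0.0615 and 0.111), whereas the 60 min call was kept in all 22 settings.

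Fosb, the nearest relative of Fos and in many cells an immediate-early gene as well, gave no detectable change. It read 257, 260 and 285 at 0 min, 280, 208 and 252 at 30 min, and 230, 268 and 232 at 60 min, and the times overlapped throughout. Its log2 fold change was -0.12 at 30 min (95% confidence interval -0.42 to 0.18, limma adjusted p = 0.652) and -0.13 at 60 min (-0.43 to 0.17, limma adjusted p = 0.545). At both times the upper bound lies far below the change of Fos. Whether the single Fosb probe set reports the induced transcript was not tested.

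Fosl2, encoding Fra-2, a Fos-family protein known for its part in osteoblast differentiation, did not pass either. It read 128, 129 and 142 at 0 min, 130, 106 and 151 at 30 min, and 113, 87.9 and 109 at 60 min. The 30 min arrays overlapped those at 0 min, while all 60 min arrays were below all 0 min arrays. The log2 fold change was -0.05 at 30 min (95% confidence interval -0.41 to 0.31, limma adjusted p = 0.893) and -0.34 at 60 min (-0.69 to 0.02, limma adjusted p = 0.178). A fall of Fosl2 was therefore not established at this number of arrays.

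Junb, a Jun-family protein that binds DNA with Fos and can restrain Jun, was the Jun gene that rose most. Its brighter probe set read 306, 259 and 242 at 0 min, 688, 1032 and 755 at 30 min, and 725, 841 and 654 at 60 min. All treated arrays were above all 0 min arrays, and the 2 treated times overlapped. The log2 fold change was 1.56 at 30 min (95% confidence interval 1.19 to 1.93, limma adjusted p = 0.0015) and 1.42 at 60 min (1.05 to 1.79, limma adjusted p = 0.00277), the ninth and eighth highest of all tested probe sets. From 30 to 60 min it moved by -0.14 (-0.51 to 0.23, limma adjusted p = 0.764), an interval that excludes a fall as large as that of Fos.

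The second Junb probe set, which the annotation derives from the same source sequence, gave the same course. It read 213, 237 and 216 at 0 min, 460, 773 and 556 at 30 min, and 609, 665 and 515 at 60 min, with log2 fold changes of 1.35 and 1.37 (limma adjusted p = 0.00673 and 0.00449). Over the 9 arrays the log2 values of the 2 probe sets had a Pearson correlation of 0.98, given as a description, since they share a target, the arrays and the time course. Both Junb probe sets kept their calls at 30 and 60 min in all 22 settings.

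Jun, the founding Jun protein and a partner of Fos, rose less than Junb and passed only at the later time. It read 87.7, 91.1 and 86.8 at 0 min, 140.0, 156 and 123 at 30 min, and 195, 119 and 191 at 60 min. All treated arrays were above all 0 min arrays, and 60 min replicate b was below the 3 arrays at 30 min. The log2 fold change was 0.59 at 30 min (95% confidence interval 0.17 to 1.0, limma adjusted p = 0.152) and 0.82 at 60 min (0.40 to 1.23, limma adjusted p = 0.0232), and the difference of 0.23 between those times did not pass (-0.19 to 0.64, limma adjusted p = 0.666). The 60 min call was lost without 0 min replicates a, b or c (limma adjusted p = 0.0849, 0.0786 and 0.0732) or 60 min replicate c (0.0633). Without 60 min replicate b the 30 min value passed, with a limma adjusted p of 0.0273, and with array weights it passed at 0.47 (0.0113). Over the 3 times together, Jun did not pass limma's F test (adjusted p = 0.058), which 4 of the 8 AP-1 probe sets did, those of Fos, Fosl1 and Junb, beside 4.64% of all tested probe sets.

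Jund, the Jun protein of resting cells, was bright from the start and rose slightly at 60 min. It read 3259, 3341 and 3348 at 0 min, 3704, 3851 and 3145 at 30 min, and 4045, 5286 and 4414 at 60 min. The 30 min arrays overlapped those at 0 min, and the 60 min arrays were above all others. The log2 fold change was 0.10 at 30 min (95% confidence interval -0.15 to 0.35, limma adjusted p = 0.654) and 0.46 at 60 min (0.20 to 0.71, limma adjusted p = 0.0299). A mean intensity above 2000, a bound chosen after seeing the data, was held by 393 tested probe sets. Of these, 65 were called higher at 60 min, Jund among them. The median log2 fold change of the 393 at 60 min was 0.25, and Jund ranked 46th. After quantile normalization that median was 0.04, and Jund stood at 0.21 (limma adjusted p = 0.0688). After cyclic loess Jund stood at 0.24 (limma adjusted p = 0.0831). From 30 to 60 min Jund moved by 0.36 (0.10 to 0.61, limma adjusted p = 0.529), without a call. The 60 min call against 0 min was also lost without 60 min replicates b or c (limma adjusted p = 0.0582 and 0.0567), without 0 min replicates a, b or c (0.105, 0.0949 and 0.0829), with no filter (0.0597) and with no variance trend (0.0645), so it held in 13 of 22 settings.

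**Figure D2:**
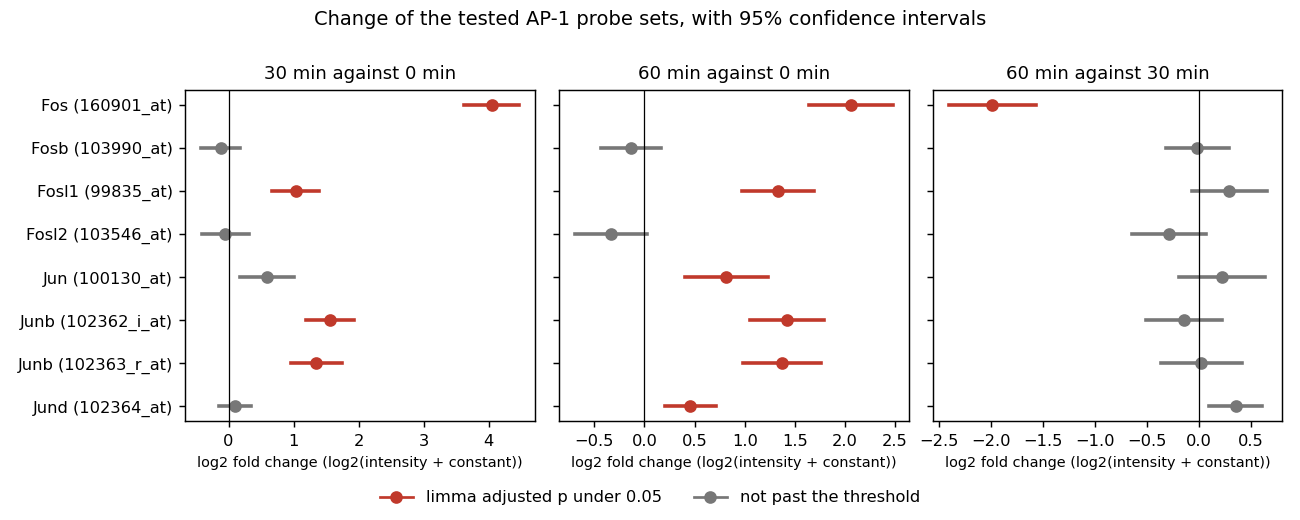
Log2 fold change (x axis, scales differ between panels) of the 8 tested AP-1 probe sets in the 3 comparisons, with 95% confidence intervals as bars and red for a limma adjusted p under 0.05. Fos alone among them passes between 30 and 60 min, at -1.99, and the intervals of Fosb and Fosl2 include 0 in every panel.

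The AP-1 genes deviated in opposite directions on 60 min replicate b, the array least like the others (median correlation 0.938, where the remaining 8 arrays had 0.954 to 0.967). Among the 60 min arrays it was the lowest for Jun, by 0.43 below the 60 min mean on the log2 scale, and for Fosl1, by 0.30. It was the highest for Jund, at 0.21 above that mean, and for Junb, at 0.19 and 0.16. Without it the 60 min log2 fold changes were 1.03 for Jun, 1.48 for Fosl1, 0.35 for Jund, 1.33 and 1.29 for Junb and 2.08 for Fos.

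**Figure D3:**
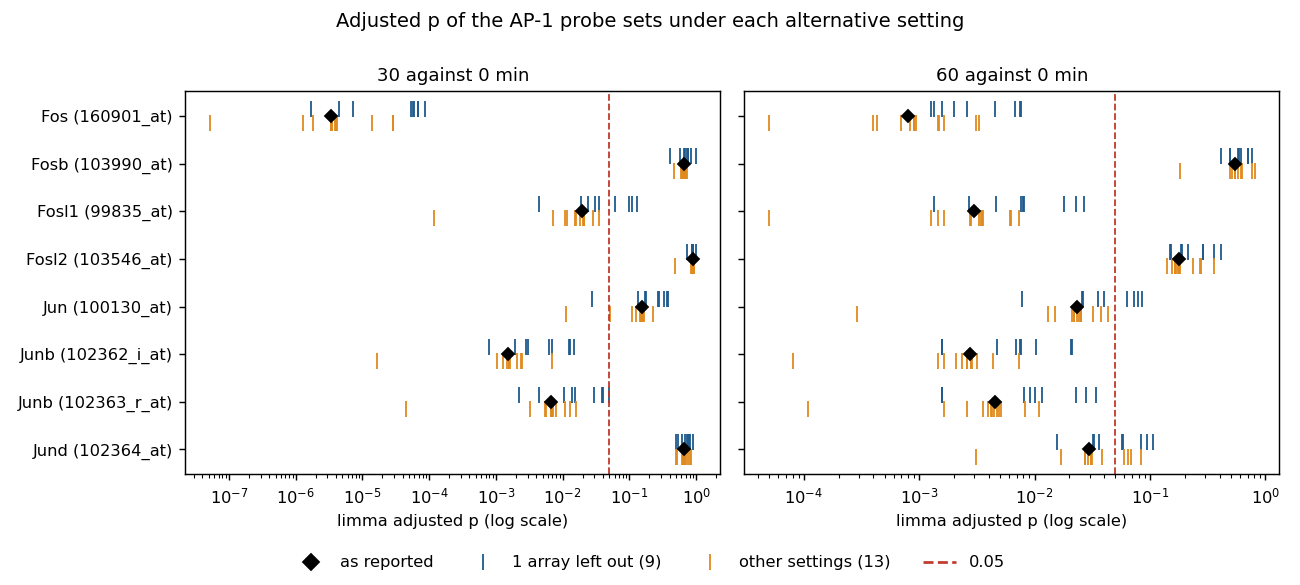
Limma adjusted p (x axis, log scale) of each tested AP-1 probe set against 0 min, as reported (diamond), with each of the 9 arrays left out (blue) and under the 13 other settings (orange), with a dashed line at 0.05. All marks of Fos and Junb stay left of the line at both times, whereas those of Jun and Jund at 60 min straddle it.

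Genes whose log2 values over the 9 arrays most resembled those of a member were picked for each member past the F test, as a description. Closest to Fos was Dusp1, with a Pearson correlation of 0.99 and mean intensities of 623, 2221 and 1200 at 0, 30 and 60 min. Btg2, an antiproliferative regulator of mRNA decay, followed at 0.96 (538, 986 and 712), and Ccn2, a matricellular protein, at 0.96 (137, 723 and 349). These 3 genes were highest at 30 min, as Fos was, a course that picking by correlation with Fos favours. Closest to Junb were Ppif (0.98), a mitochondrial cyclophilin, Nr4a1 (0.97), an orphan nuclear receptor, and Cstf1 (0.97), a subunit of the polyadenylation machinery, whose second probe set had 0.30. Nr4a1 read 44.0, 306 and 298 on average, level between 30 and 60 min like Junb, by whose course it was picked. Closest to Fosl1 were Lsm3 (0.98), an RNA-binding protein of the spliceosome, Gsr (0.98), the glutathione reductase, and Mcm3 (0.96), a helicase subunit, whose second probe set had 0.93. Resembling a member did not require a call. Cstf1 was not called, with log2 fold changes of 0.30 and 0.32 at 30 and 60 min (limma adjusted p = 0.162 and 0.0573). Ppif and Lsm3 were not called at 30 min, at 0.50 and 0.38 (limma adjusted p = 0.0826 and 0.0897), but were at 60 min (0.0332 and 0.0298). The other genes named here passed at both times in the main fit. All points of a correlation share the arrays and the time course.

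Lists of other genes around AP-1 are described by their counts, to be read against the 0.482% of all tested probe sets that rose and 0.457% that fell at 30 min, and the 4.35% and 8.73% at 60 min. With 9 to 18 genes tested per list, a count of 0 at 30 min is near these shares. Of the factors that drive transcription of Fos and Jun genes, 14 were listed and 9 tested, with 0 past the threshold at 30 min and 1 lower at 60 min. The brightest, Mef2d and Stat3, had log2 fold changes of 0.09 and -0.20 at 30 min (limma adjusted p = 0.718 and 0.377). The one that fell was Mef2c, a MADS-box factor, by 1.01 on the log2 scale, from 211 ± 21.2 to 106 ± 44.6 (SD, n = 3 arrays each, limma adjusted p = 0.0472). A pair of its other probe sets stood at -0.98 and -1.15 (limma adjusted p = 0.0472 and 0.045), and the last at -0.52 (0.133). The Mef2c call was lost in 15 of 22 settings, quantile normalization and each 0 min array left out among them. A single fall among 9 genes lies near the share of all tested probe sets. The median of the list was -0.20 at 30 min and -0.21 at 60 min, beside 0.05 and 0.03 for all tested probe sets.

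Of the other leucine zipper partners and relatives, such as the Atf and Maf proteins, 13 of 17 listed genes were tested and 0 passed at either time. Of all tested probe sets, 0.482% rose and 0.457% fell at 30 min, and 4.35% and 8.73% at 60 min. The brightest were Atf4, the effector of the integrated stress response and a factor required for osteoblast function, at 0.26 and 0.28 at 30 and 60 min (limma adjusted p = 0.375 and 0.222), and Nfe2l1 at 0.10 and 0.09 (0.654 and 0.661). The list had a median of 0.19 at 30 min and 0.09 at 60 min. Of kinases and cofactors that act on AP-1 proteins, 15 of 21 were tested and again 0 passed, with a median of -0.10 and -0.15. Prkacb, a catalytic subunit of protein kinase A, stood at -0.10 and -0.26 (limma adjusted p = 0.693 and 0.189), and Cops5, a coactivator of Jun, at -0.17 and -0.15 (0.512 and 0.491). These values concern transcripts and say nothing of the phosphorylation through which these kinases act.

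Among genes known as AP-1 targets, 18 of 24 were tested, with 2 higher at 30 min, beside 0.482% of all tested probe sets, 4 higher at 60 min, beside 4.35%, and 0 lower at either time, beside 0.457% and 8.73%. Plaur, the urokinase receptor, rose from 184 ± 13.9 to 332 ± 22.3 at 30 min and stood at 284 ± 35.5 at 60 min (SD, n = 3 arrays each), with log2 fold changes of 0.81 and 0.59 (limma adjusted p = 0.0201 and 0.0202). Hbegf, a ligand of the EGF receptor, rose from 145 ± 2.53 to 261 ± 17.8 and 234 ± 18.2, by 0.80 and 0.65 (limma adjusted p = 0.0142 and 0.012). Timp1, an inhibitor of matrix proteases, rose by 0.47 at 60 min (limma adjusted p = 0.036), and Col1a1, the main bone collagen chain, by 0.56 (0.0499). At either time, leaving out 0 min replicate a or b ended the calls of Plaur and of Hbegf. Those of Plaur were also lost without 0 min replicate c, and its 30 min call without 30 min replicates b or c. The 30 min call of Hbegf was also lost without 0 min replicate c or 30 min replicate c. Timp1 and Col1a1 are bright, like Jund, and lost their calls in 9 and 15 of 22 settings, quantile normalization and cyclic loess among them, and a second Col1a1 probe set stood at 0.08. Mmp13, the collagenase through which PTH and AP-1 are classically linked in osteoblasts, is given here after its values were seen. It read 3356 ± 354, 2670 ± 263 and 2236 ± 868, with log2 fold changes of -0.33 and -0.66 (limma adjusted p = 0.482 and 0.0883). The median of the target list was 0.03 at 30 min and 0.22 at 60 min.

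**Figure D4:**
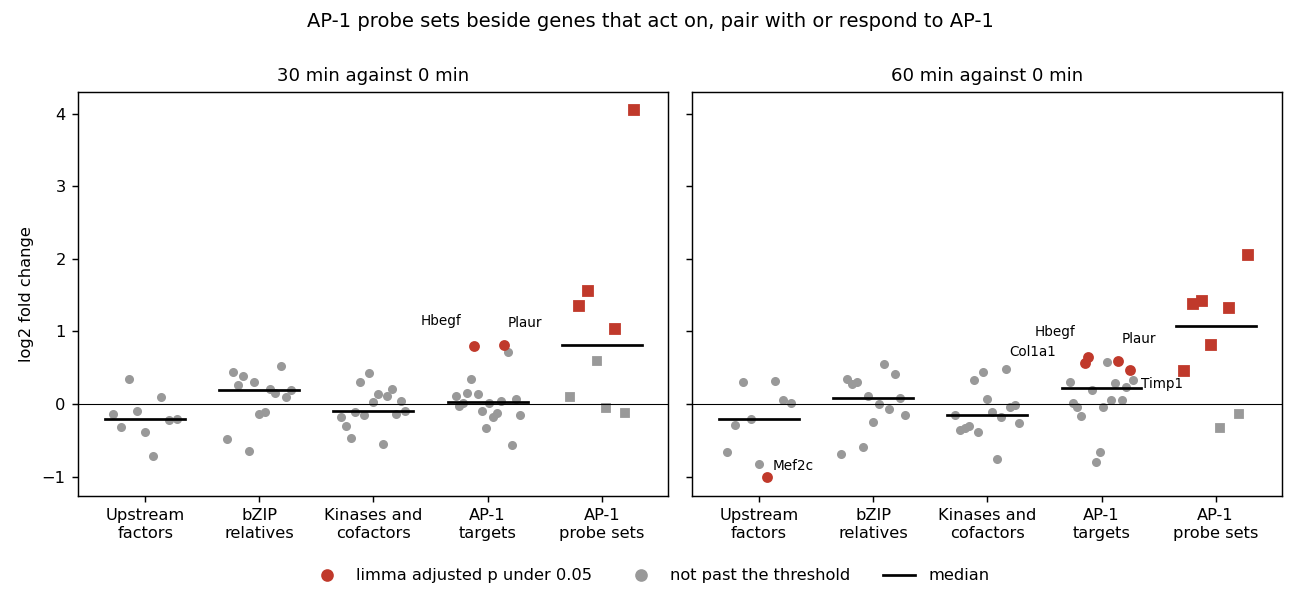
Log2 fold change (y axis) against 0 min of the tested genes in 4 lists around AP-1 and of the 8 AP-1 probe sets (squares), with black bars for medians and red for a limma adjusted p under 0.05. The AP-1 probe sets have medians of 0.81 and 1.07, while those of the lists lie between -0.21 and 0.22. The units differ, as Junb counts through both its probe sets and each list gene through its brightest alone. With the brighter Junb probe set only, the middle of the 7 AP-1 genes is Jun, at 0.59 and 0.82.

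The labelled cell type was checked against marker genes. Of 11 osteoblast markers 7 had a probe set and 6 were tested. Mean intensities at 0 min were 3809 for Col1a1, 5386 for Col1a2, 3389 for Sparc, 2083 for Omd, 234 for Alpl and 117 for Ibsp. At 60 min 2 of the 6 passed the threshold in opposite directions, beside 4.35% of all tested probe sets that rose and 8.73% that fell. Col1a1 was higher, as given above, and Omd lower, at 545 (log2 fold change -1.93, limma adjusted p = 0.0145), while Ibsp stood at 66.6 (-0.80, limma adjusted p = 0.0576). Omd was named after its values were seen, and the alternative settings were not run for it. Pth1r, the PTH receptor, stayed between 6.70 and 41.6 on all arrays and was not tested. Some markers of other cells were measured too. Of 8 haematopoietic and osteoclast markers 7 were tested, and 0 passed the threshold at 30 or 60 min. A count of 0 among 7 lies near the shares of all tested probe sets, which at 30 min were 0.482% higher and 0.457% lower. At 0 min Cd14 averaged 976, Ctsk 599, Cd68 139, Laptm5 109 and Csf1r 83.0. The remaining tested genes of this list, Acp5 and Spi1, averaged below the filter intensity of 44.7 at 0 min. The leukocyte gene Ptprc was at most 18.1 and not tested. The summed list read 1888 to 2136 at 0 min, 2081 to 2188 at 30 min and 1956 to 2398 at 60 min. The 4 endothelial markers were all below the filter, and their sum was 29.3 to 45.3 at 0 min, 37.6 to 70.8 at 30 min and 81.1 to 95.3 at 60 min. The sums of 5 muscle markers, 3 of them tested (204 to 302, 325 to 363 and 276 to 410), 4 adipocyte markers (177 to 184, 156 to 186 and 157 to 184) and 3 chondrocyte markers (32.1 to 52.9, 33.7 to 83.9 and 50.6 to 55.0) completed the lists. Ckm was the 1 of 3 tested muscle markers called higher at 60 min, beside 4.35% of all tested probe sets. The part of such markers in the AP-1 values was not tested. In bulk RNA, fewer cells carrying a transcript and less of it per cell cannot be told apart.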

How the data were processed

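The deposited table holds 1 linear intensity per probe set and array. How the authors summarised and scaled these intensities is unstated in those sources that were used. With 2% taken off each end, the mean intensity of every array lay between 249.5 and 250.0 (a rule allowed a ratio under 1.1), so the table was used without further scaling. Log2(intensity + 11.8), adding the 20th percentile of the table, was analysed with limma 3.58.1 in R 4.3.3, with a mean per time over all 9 arrays, a variance trend, and Benjamini-Hochberg adjustment over 7884 probe sets. These had at least 3 arrays above 44.7, the 40th percentile, and exclude 66 control probe sets. Gene names came from the platform annotation, in which 10833 probe sets had 1 symbol, 396 several and 1193 none, checked against RefSeq genes of GRCm38.p6, which changed 0 symbols. The code was tested on simulated arrays, which checks the code alone and bears on no result given here. The number of arrays limits the precision.

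The members, lists, tests and alternatives were chosen with earlier results of these data known. Genes named beside the members were, per list, at most 4 called genes, by size of change, or the 2 brightest if none was called, and the 3 genes with the highest correlation to each member past the F test. A list gene was represented by its brightest probe set. Plots used Python 3.11.15 and matplotlib 3.10.9.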

Additional observations from a re-analysis of the deposited data

Results flagged for a closer look

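Fos stood out because its changes by 30 and by 60 min differed from each other, by -1.99 on the log2 scale (limma adjusted p = 0.00475), on all 3 arrays at 60 min against all 3 at 30 min.

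The dim Fos probe set, which lay below the filter and entered no comparison of the main fit, averaged an intensity of 25.6 ± 3.50 at 30 min (SD, n = 3 arrays), above its 10.4 ± 5.45 at 0 min. With the filter dropped, this difference did not pass, at a log2 fold change of 0.78 (limma adjusted p = 0.188).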

How the results depend on the processing

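Of the 528 recomputed log2 fold changes of AP-1 probe sets, 506 stayed on their side of the threshold, 18 lost a call, 4 gained one and 0 reversed with a call. The number of AP-1 probe sets called was 3 to 5 at 30 min and 4 to 6 at 60 min over 22 settings. Between 30 and 60 min it was 3 with array weights, where rises of Jun (0.51, limma adjusted p = 0.0276) and Jund (0.42, 0.0147) joined the fall of Fos, and 0 to 1 with 1 array left out, the 0 being without 30 min replicate b. For any change over the 3 times it was 2 to 5 with 1 array left out, the 2 being without 0 min replicate a. The counts over all tested probe sets, against which the members were read, were far less stable. They were 74 at 30 min, 1031 at 60 min, 2 between 30 and 60 min and 366 for any change, and ranged over 16 to 2381, 77 to 2499, 0 to 833 and 18 to 3360. Each highest count came with array weights. The lowest came without 0 min replicate a, except the 0, which came without 30 min replicate b; limma then called 0 of 7884. In the full data 715 had an unadjusted p under 0.05 in that comparison. No scaling moved the median of all tested probe sets by over 0.1. The replicate letters did not pair the arrays throughout: 2 of 9 same-letter pairs had deviations correlated over 0.1. Both lay between 30 and 60 min, at 0.30 for replicate a and 0.25 for replicate b. The swapped pairs stood at -0.27 (30 min a with 60 min b) and -0.26 (30 min b with 60 min a). At both other times 2 of 9 arrays correlated best with their own letter. Whether these arrays were paired is therefore not settled. With the letter as a replicate block the AP-1 counts were 4, 6 and 1, with 5 for any change, and the counts over all tested probe sets 259, 1446, 1 and 834. Depth cannot be given for arrays. The constant matters most for Fos, the one member near background at 0 min.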
